A study of Homo sapiens with 8 samples.

Results

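6 entries of the deposited expression tables, out of 22653, concern the arginine and lysine transporters SLC7A1 and SLC7A2. They were taken by name: the engineered transcripts SLC7A1_endo_Flag and SLC7A2_Flag, the short tag entry Flag_Cterm, the assembled locus XLOC_024383, whose counts equal those of SLC7A1_endo_Flag, and the endogenous genes SLC7A1 (Entrez 6541) and SLC7A2 (Entrez 6542). U937 is a human monocytic cell line, and all cells studied here were SLC19A1-/-, that is, they carried a disruption of the gene for the reduced folate carrier. Into that background went a tetracycline-controlled, Flag-tagged SLC7A1 or SLC7A2, giving 2 lines. Each line was sampled without doxycycline (dox) and after 24 h with dox at 1 µg/mL, with 2 libraries numbered 1 and 2 in each of the 4 groups. The labels do not say whether the 2 libraries of a group came from separate cultures, so every spread and p-value below measures the difference between libraries, which may be technical. No line without a construct was treated with dox, so an effect of dox itself and an effect of the construct cannot be told apart.

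Cells of the monocyte and macrophage lineage use arginine for protein synthesis, nitric oxide and polyamines, and take it up through cationic amino acid transporters. SLC7A1 encodes CAT1, a sodium-independent importer of arginine, lysine and ornithine found in most tissues. SLC7A2 encodes CAT2, whose splice forms are the low-affinity carrier of liver and the inducible carrier of activated macrophages. In a tetracycline-controlled system, dox switches on the promoter of the introduced gene, and transcript made without dox is called leak.

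Endogenous SLC7A1 lies on the minus strand of chr13:29509410-29595688 (GRCh38, GENCODE release 29), where no other annotated gene overlaps it. Its full-length transcript model has 13 exons and 7347 nt, of which 1890 nt are coding with the stop codon included and 5457 nt, or 74.3%, lie outside the coding part. The deposited lengths of SLC7A1 were 7343 to 7346 nt. SLC7A1_endo_Flag was listed with a length of 1926 nt, which is 36 nt longer than the coding sequence. The ends of the endogenous coding sequence are shown because they bound the coding stretch that the construct length exceeds; the start codon and the stop codon are in capitals, and both are given on the minus strand of GRCh38, 5′ to 3′.

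SLC7A1 coding start, chr13:29536129-29536188: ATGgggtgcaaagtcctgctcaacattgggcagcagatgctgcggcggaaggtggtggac

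SLC7A1 coding end, chr13:29514480-29514539: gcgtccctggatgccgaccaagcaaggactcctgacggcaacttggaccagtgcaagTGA

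SLC7A2 lies on the plus strand of chromosome 8, from 17497088 to 17570573, where 4 further annotated entries overlap it. SLC7A2_Flag had a length of 2013 nt, again 36 nt more than the 1977 nt of coding sequence in the transcript models ENST00000494857.5 and ENST00000522656.5. Against the other models with a complete coding sequence, of 2094 or 2097 nt, the entry was 81 or 84 nt shorter. The longest run of bases shared by the coding sequences of SLC7A1 and SLC7A2 was 16 nt. No transcript of another gene, among 206691, shared a 31-nt stretch with the SLC7A1 transcript. At 21 nt, 19 other genes shared a stretch on the same strand and 19 on the opposite strand, with 0 in the coding part. The assembled loci, such as XLOC_024383, were not among the transcripts compared. The construct sequences themselves were not used here, so what the 36 nt hold was not examined.

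The 8 libraries held 17309132 to 18441833 expected counts, so 3 counts, used below as the floor for an entry at 0, correspond to 0.163 to 0.173 CPM (counts per 1000000 of the library total). SLC19A1 transcript was still listed at 40.9 to 59 TPM (a level scaled for length and library), which does not bear on whether its protein was lost. All 8 myeloid markers examined were above the floor, with a summed level of 768 to 910 TPM, while the T cell list summed to at most 0.27 TPM. CD79A, on the B cell list, was at 20.6 to 34.1 TPM, with MS4A1 at 0. Both SLC7A2-line libraries numbered 2 stood apart on the first principal component of the 17503 entries that passed the count filter (27.4% of the variance). They scored 55.3 (no dox) and 68.1 (dox), and the remaining 6 scored from -52.7 to -3.67. In the SLC7A1 line, number 1 scored -52.7 (no dox) and -34.8 (dox), and number 2 scored -3.67 and -17.2.

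Without dox, the SLC7A1 construct was close to undetectable. SLC7A1_endo_Flag had 4.72 expected counts in library 1 (0.264 CPM, exact Poisson 95% interval 0.0907 to 0.652, taken for 5 counts) and 0 in library 2, which allows up to 0.163 CPM at 3 counts. XLOC_024383 held the same 4.72. The sum of both was at 0.36 TPM, near the 0.38 TPM of SLC7A2_Flag in library 1 of its line without dox. SLC7A1_endo_Flag was at 0 in all 4 SLC7A2-line libraries. SLC7A2_Flag without dox had 10 counts in library 1 of its line (0.563 CPM, 0.27 to 1.03) and 177 in library 2 (9.65 CPM, 8.28 to 11.2). The leak in library 2 was thus 17.1 times that in library 1 (counting interval 9.11 to 36.4), beyond counting error. None of the 10906 entries with at least 100 counts in both of these libraries differed by as much, and their median difference was 1.16-fold. SLC7A2_Flag, with 10 counts in library 1, was not among them. Entries with counts as low as its own were not compared, so its place among those is not known. The fibroblast list (COL1A1, COL1A2, COL3A1) was also high in library 2, at 13.9 TPM against 0.61 to 1.87 TPM in the other 7. Its part in the leak value was not tested. In the line without the construct, SLC7A2_Flag had 1 count in 1 of 4 libraries. These intervals cover counting error only.

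With dox, SLC7A1_endo_Flag reached 14976 counts in library 1 and 6721 in library 2 of its line, or 845 and 367 CPM. In TPM the values were 588 and 252, ranks 214 and 519 among the entries above 0. Both libraries lay far above both libraries without dox. In bulk RNA, more expressing cells and more transcript per cell cannot be told apart. The ratio of CPM was 3204 in the libraries numbered 1 (counting interval 1296 to 9316), and at least 2247-fold higher with dox in those numbered 2, against a floor of 3 counts in that library. The fitted change was 12.01 ± 0.84 (log2, SE; 11.00 to 16.43 when 1 library was left out, since the libraries without dox are near 0), with an adjusted p of 0.138 from edgeR's quasi-likelihood test with Benjamini-Hochberg adjustment, so it did not pass 0.05. This SE was derived from the F statistic and is not reliable with so few counts without dox. The edgeR test called 0% of 17503 entries in this comparison, and 222 entries had an unadjusted p under 0.05. DESeq2 called 0.0514% of them, with SLC7A1_endo_Flag at an adjusted p of 1, and edgeR on the sum with XLOC_024383 gave an adjusted p of 0.402. edgeR without the filter on low counts gave an adjusted p of 0.0159 for SLC7A1_endo_Flag (0.00884% of entries called). limma gave a change of 8.47 on the log2(TPM + 1) scale with an adjusted p of 0.000205 (0.0114% called). Except in the fit on the sum, XLOC_024383 was tested as a separate entry with the same p, which can lower the adjusted p of both. Library 1 held 2.3 times the CPM of library 2, and 73 of 11048 entries with at least 100 counts in both, or 0.661%, differed by as much.

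SLC7A2_Flag with dox had 4569 counts in library 1 and 91235 in library 2 of its line, or 264 and 4947 CPM. By TPM it ranked 753 of 19347 entries in library 1, at 181 TPM, and 47 of 19670 in library 2, at 3643 TPM, where it took 0.495% of all counts. The 2 libraries of this group therefore differed 18.7-fold (counting interval 18.2 to 19.3). Among 10933 entries with at least 100 counts in both, the only one that differed as much was SLC7A2_Flag itself, and the median difference was 1.22-fold. The library with the higher level with dox carried the same number as the library with the higher leak. Within a number, the ratio of CPM with dox to without was 469 (255 to 979) for number 1 and 513 (443 to 598) for number 2. Across numbers it ran from 27.4 to 8794, so the size of the induction depends on which libraries are set against each other, and the labels do not say that a number marks a shared culture. The lowest library with dox still lay above the highest without. Of all entries tested, 10.2% were likewise higher without overlap in this line, as 11.1% were in the SLC7A1 line.

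The edgeR change of SLC7A2_Flag was 8.93 ± 1.80 (log2, SE), with an adjusted p of 1; edgeR called 0% of entries in this line (224 at an unadjusted p under 0.05) and DESeq2 called 0.0571%, with SLC7A2_Flag at an adjusted p of 0.129. The change was 5.71 without library 2 with dox and 12.06 without library 2 without dox. Without both libraries numbered 2 of this line, leaving 1 library with and 1 without dox there, edgeR called SLC7A2_Flag alone for dox across both lines (0.00563% of entries). That fit assumes that the lone libraries vary like the other groups. Between the lines without dox, SLC7A2_Flag did not pass (edgeR, adjusted p = 0.855, 0% called); no fitted fold is given, because both SLC7A1-line libraries without dox were at 0.

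**Figure D1:**
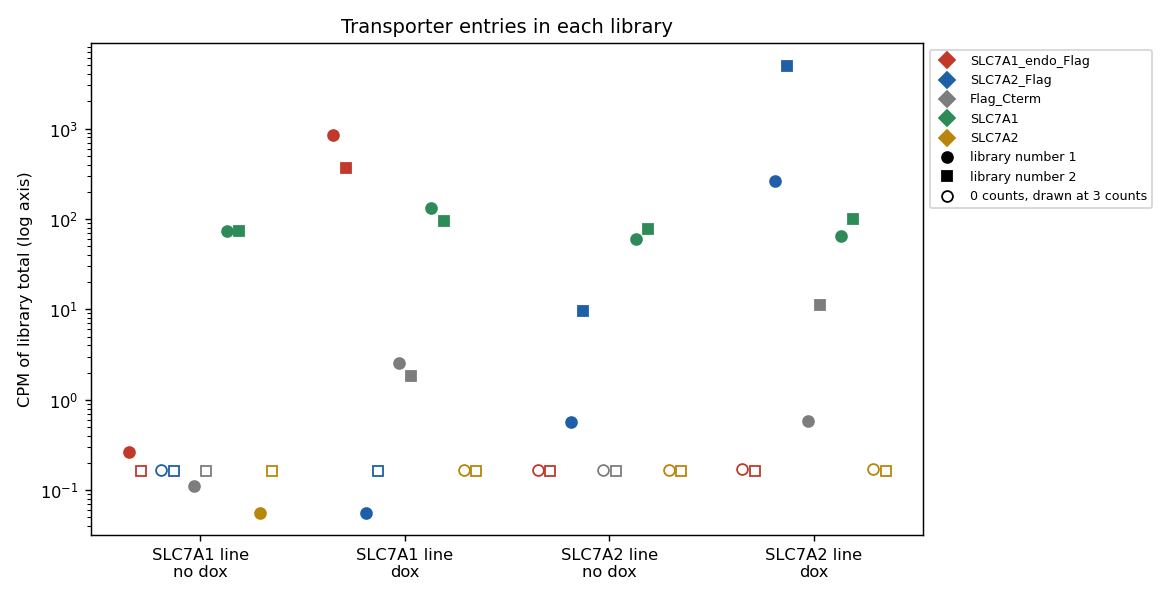
Level of each entry in each library, in CPM of the library total on a log axis, with circles for library number 1 and squares for number 2; open symbols mark 0 counts, drawn at 3 counts. XLOC_024383 is left out because it equals SLC7A1_endo_Flag. The SLC7A2_Flag points lie far apart within both SLC7A2-line groups, while SLC7A1 stays between 59.5 and 133 CPM in all 8 libraries.

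Against the endogenous gene, both constructs were the more abundant transcript in every library with dox. In the SLC7A1 line, SLC7A1_endo_Flag TPM was 27.2 times endogenous SLC7A1 TPM in library 1 (counting interval 26.0 to 28.4) and 16.7 times in library 2 (15.8 to 17.6). With XLOC_024383 added to the construct, the ratios were 54.3 and 33.3. SLC7A2_Flag in the SLC7A2 line was 16.4 times SLC7A1 in library 1 (15.3 to 17.5) and 201 times in library 2 (192 to 211), or 314 times the median SLC7A1 TPM of that line without dox. Construct therefore made up 96.4% and 94.3% of construct plus endogenous SLC7A1 TPM where SLC7A1 was introduced, and 94.2% and 99.5% where SLC7A2 was. The interval of SLC7A2-line library 1 overlapped that of SLC7A1-line library 2 for SLC7A1_endo_Flag alone. With XLOC_024383 added, SLC7A1-line library 2 was higher, at 33.3 against 16.4. SLC7A2-line library 2 lay above all others either way.

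Without dox the order was the opposite. SLC7A1_endo_Flag was 0.0157 of SLC7A1 TPM in library 1 and 0 in library 2. SLC7A2_Flag was 0.0384 of SLC7A1 TPM in library 1 (0.0184 to 0.071), but 0.511 in library 2 (0.434 to 0.597), where leak made up 33.8% of the summed level against 3.70% in library 1. The summed SLC7A1 level, endogenous gene, construct and XLOC_024383 together, went from 11.9 to 1198 TPM in the SLC7A1-line libraries numbered 1 and from 12.1 to 519 TPM in those numbered 2, or 101-fold and 42.8-fold. Set side by side with dox, SLC7A2_Flag TPM was between 0.308 and 14.5 times SLC7A1_endo_Flag TPM, depending on the pair of libraries. With XLOC_024383 added to SLC7A1_endo_Flag the range was 0.154 to 7.23. The 2 constructs could therefore not be ordered by level.

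**Figure D2:**
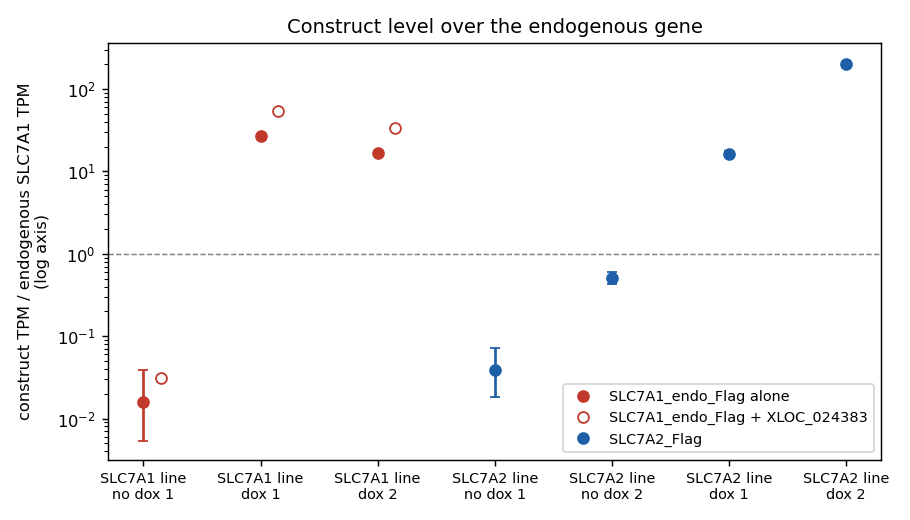
Construct TPM divided by endogenous SLC7A1 TPM in the 7 libraries with construct counts, on a log axis; bars are 95% counting intervals, the dashed line marks equal levels, and open circles add XLOC_024383 to SLC7A1_endo_Flag. All 4 libraries with dox lie above 16 and all 3 without lie below the line, the highest of those at 0.511.

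XLOC_024383 and SLC7A1_endo_Flag could not be told apart in these tables. Their expected counts were equal in all 8 libraries (difference 0), as were their lengths of 1926 nt and their effective lengths. Expected counts divide a read among the entries it could come from, which leaves fractions: 39.1% to 40.2% of the entries listed in a library had whole counts. Among the 6818 to 7185 fractional entries with at least 100 counts in a library, 12 to 18 had a partner with exactly the same count, in 6 to 9 sets. If both entries describe the same transcript, the construct level is their sum; whether they share a sequence was not examined. Endogenous SLC7A1 counts were fractional in all 8 libraries. SLC7A2_Flag counts were whole wherever it was listed.

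The Flag tag entry gave a further reading of both constructs. Flag_Cterm, a 202-nt entry named for a C-terminal tag and of unexamined sequence, had 2 and 0 counts in the SLC7A1 line without dox and 45 and 34 with dox. In the SLC7A2 line it had 0 and 0 without dox, and 10 and 207 with dox. It was 22.7 times as high with dox in CPM in the SLC7A1-line libraries numbered 1 (counting interval 5.93 to 193) and at least 11.4-fold higher in those numbered 2. In the SLC7A2 line it was at least 3.42-fold and at least 68.7-fold higher, with the same floor of 3 counts per library. In the SLC7A1-line libraries numbered 1, the interval of Flag_Cterm lay below the 1296 to 9316 of SLC7A1_endo_Flag. The 2 entries thus disagreed there on the size of the induction. Without dox that library held 2 Flag_Cterm counts beside 4.72 of SLC7A1_endo_Flag. The cause was not tested. The SLC7A2-line libraries with dox differed 19.4-fold in Flag_Cterm (10.4 to 41.1), close to the 18.7-fold of SLC7A2_Flag. In the SLC7A1 line the counting interval of the ratio of library 2 to library 1, 0.454 to 1.17, did not reach down to the 0.434 of SLC7A1_endo_Flag.

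Per 1000 counts of SLC7A2_Flag there were 2.19 Flag_Cterm counts in library 1 (1.05 to 4.03) and 2.27 in library 2 (1.97 to 2.60). Per 1000 counts of SLC7A1_endo_Flag there were 3.00 (2.19 to 4.02) and 5.06 (3.50 to 7.07). With XLOC_024383 added to the denominator these became 1.5 (1.10 to 2.01) and 2.53 (1.75 to 3.53), and the intervals of all 4 libraries overlapped. With SLC7A1_endo_Flag alone, the interval of library 2 lay above that of SLC7A2-line library 2. Flag_Cterm TPM is not a usable level: its length is 202 nt and its effective length 4.26 to 5.39 nt, so that 207 counts became 3340 TPM, rank 51. Flag_Cterm did not pass in edgeR in either line (adjusted p = 1 in both), and its fitted folds rest on 0 to 2 counts without dox. DESeq2 gave it an adjusted p of 0.836 in the SLC7A1 line and 0.00837 in the SLC7A2 line, and across both lines Flag_Cterm was its only call, at an adjusted p of 0.00603 (0.00571% of entries, against 0% by edgeR, where 261 had an unadjusted p under 0.05).

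**Figure D3:**
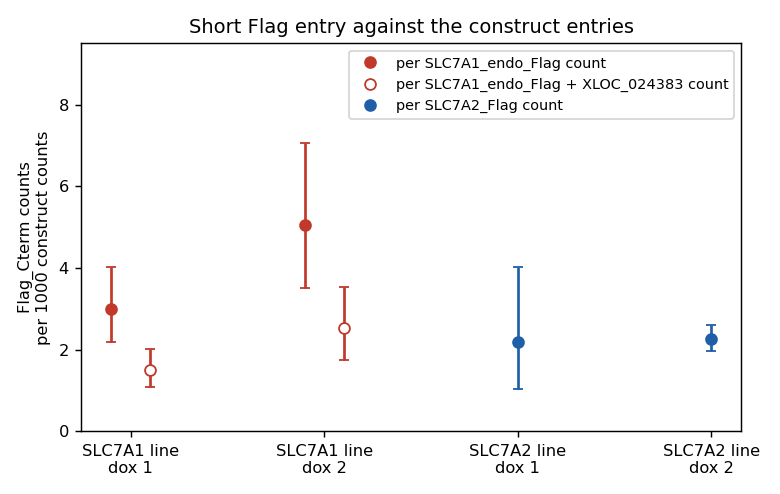
Flag_Cterm counts per 1000 counts of the construct entry in the 4 libraries with dox, with 95% exact Poisson intervals of the Flag_Cterm count; open circles use the sum of SLC7A1_endo_Flag and XLOC_024383. The values run from 1.5 to 2.53 with the sum in the SLC7A1 line and are 2.19 and 2.27 in the SLC7A2 line.

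Endogenous SLC7A1 was expressed at a moderate level in all 8 libraries. In the SLC7A1 line it was at 11.5 and 12.1 TPM without dox and 21.7 and 15.1 TPM with dox, in libraries 1 and 2. In the SLC7A2 line it was at 9.89 and 13.3 TPM without dox and 11.1 and 18.1 TPM with dox. The group means were 11.8 ± 0.445, 18.39 ± 4.62, 11.6 ± 2.43 and 14.6 ± 4.97 TPM (SD, n = 2), in that order. The groups did not overlap in the SLC7A1 line, as for 11.1% of all entries, but did in the SLC7A2 line, where library 1 with dox lay below library 2 without. By TPM, the highest library was number 1 of the SLC7A1 line with dox and the lowest number 1 of the SLC7A2 line without dox. No neighbours in the order of these 4 means differed beyond their spread.

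In edgeR, SLC7A1 changed by 0.62 ± 0.23 (log2, SE) with dox in the SLC7A1 line, with an unadjusted p of 0.0294 and an adjusted p of 1, and so did not pass. In the SLC7A2 line the change was 0.24 ± 0.23 (adjusted p = 1), and it was -0.04 without library 2 with dox. The difference between these effects was -0.38 ± 0.32 (edgeR, adjusted p = 1; 0% of entries called, 222 at an unadjusted p under 0.05, and 0.114% called by DESeq2). The lines without dox differed by -0.14 ± 0.23 (edgeR, adjusted p = 0.946; 931 entries at an unadjusted p under 0.05, and 0.2% called by DESeq2), and by 0.01 without SLC7A2-line library 1. Across both lines the change was 0.43 ± 0.16 (edgeR, unadjusted p = 0.0285, adjusted p = 1). SLC7A1 CPM was higher with dox in 4 of 4 same-numbered pairs, as was that of 7.7% of all entries tested.

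An exact two-sided permutation test of mean SLC7A1 TPM, 16.5 with dox against 11.7 without (n = 4 each), gave a difference of 4.78 TPM and p = 0.114, where the smallest p that 70 arrangements allow is 0.0286. Permuting within a line gave an exact p = 0.111, the smallest possible there being 0.0556. Without SLC7A2-line library 1 with dox the difference was 6.59 TPM and the exact p was 0.0286, the smallest that design allows. The change in SLC7A1 CPM between same-numbered libraries equalled 3.53% and 2.84% of the construct CPM (SLC7A1_endo_Flag plus XLOC_024383) in the SLC7A1 line. In the SLC7A2 line it equalled 2.28% and 0.472% of SLC7A2_Flag CPM. Whether any of the SLC7A1-line change came from reads of the construct was not tested.

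**Figure D4:**
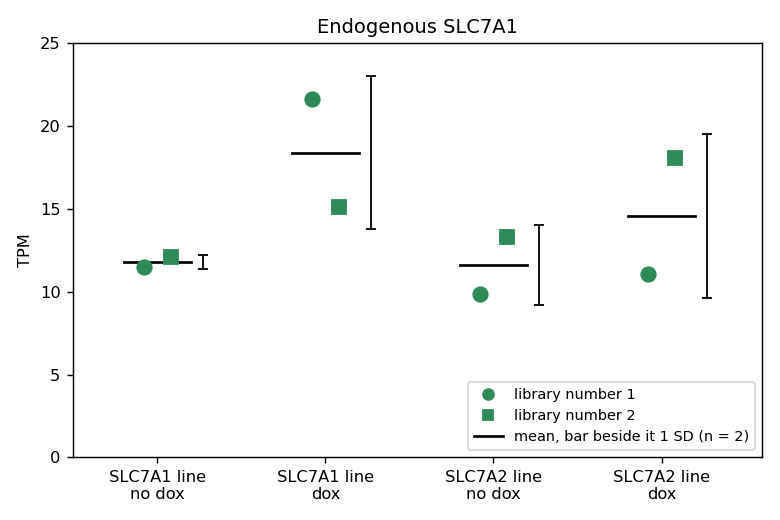
Endogenous SLC7A1 in TPM in each library, with circles for library number 1, squares for number 2, a horizontal line at the group mean and 1 SD beside it (n = 2). The points with dox, 21.7 and 15.1 TPM, lie above those without in the SLC7A1 line, while the SLC7A2-line groups overlap.

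Endogenous SLC7A2 was not detectable at this depth. It had 1 count in SLC7A1-line library 1 without dox and 0 in the other 7 libraries, including both with dox in the SLC7A2 line, where SLC7A2_Flag had up to 91235 counts. A count of 0 allows up to 0.163 to 0.173 CPM at 3 counts.

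Other carriers of cationic amino acids gave no called change beside the constructs. Of 14 listed, 11 were in the files and 7 passed the count filter; 5 of these 7 had a log2 change above 0 with dox in the SLC7A1 line (median 0.15, against -0.00272 over all entries, of which 49.2% were above 0) and 3 of 7 in the SLC7A2 line (median -0.00432, against 0.00702), with 0 called by edgeR in either. SLC3A2, the heavy chain that carries several SLC7 light chains to the membrane, was the most abundant, at 152 to 259 TPM. Its light chain SLC7A6 (y+LAT2) was at 2.19 to 6.50 TPM, and SLC7A7 (y+LAT1) at 1.05 to 3.23 TPM. SLC7A7 had the largest change of the list in the SLC7A1 line, 0.52 ± 0.48 (edgeR, log2, SE; adjusted p = 1).

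SLC66A1, which exports cationic amino acids from lysosomes, was at 15.96 to 25.98 TPM, and SLC38A9, the lysosomal arginine sensor, at 3.59 to 6.59 TPM. The mitochondrial carriers SLC25A15 and SLC25A29 were at 10.0 to 16.6 and 19.1 to 27.9 TPM. SLC7A14, SLC3A1, SLC7A9 and SLC25A2 had at most 2 counts in a library, and SLC7A3, SLC7A4 and SLC6A14 were at 0.

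Among other SLC7 genes, 3 of 5 were tested and 0 were called. SLC7A5 (LAT1), the importer of large neutral amino acids, was at 97.0 to 179 TPM. SLC7A11, the cystine and glutamate exchanger, was at 1.69 TPM in SLC7A2-line library 2 with dox and at 0.60 to 1.10 TPM in the other 7; its change in that line was 0.72 ± 0.41 (edgeR, log2, SE; adjusted p = 1). Of 7 genes that act on SLC7A1 or in the amino acid response, 4 and 6 were above 0 in the SLC7A1 and SLC7A2 lines (medians 0.11 and 0.12), with 0 called; over all entries 49.2% and 51.3% were above 0, with medians of -0.00272 and 0.00702. DDIT3, which encodes the stress factor CHOP, separated by library number and not by dox in the SLC7A1 line, at 72.7 and 83.4 TPM in the libraries numbered 1 against 21.1 and 25.5 TPM in those numbered 2. ATF4, the central factor of the amino acid response, followed the same order there, at 728 and 802 TPM against 465 and 525 TPM.

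**Figure D5:**
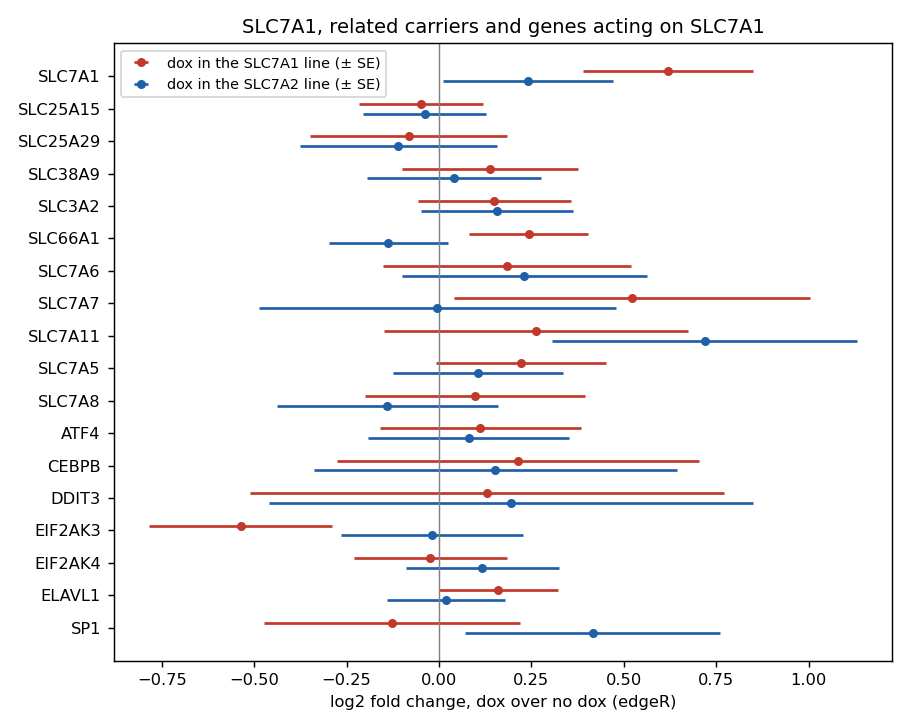
Log2 fold change with dox over without (edgeR, points with SE bars) of SLC7A1, the 7 tested cationic carriers, 3 other SLC7 genes and 7 genes acting on SLC7A1, in red for the SLC7A1 line and blue for the SLC7A2 line. None passed an adjusted p of 0.05; SLC7A1 is at 0.62 and 0.24.

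The genes whose levels were most like endogenous SLC7A1 over the 8 libraries were ITGAX (Pearson r = 0.94, Spearman rho = 0.90), ITGB2 (0.94 and 1), ORC6 (0.94 and 0.98), JAK2 (0.94 and 0.71) and GNB5 (0.93 and 0.90). They were the highest of 10312 entries compared, so no p is given, and the libraries share their groups. Without the 2 libraries farthest from the SLC7A1 median, r ran from 0.78 (JAK2) to 0.89 (GNB5). The most opposite were NDRG3 (r = -0.98), TFR2 (-0.94) and DHCR7 (-0.93). ITGAX, the integrin subunit CD11c, was at 6.84 TMM-scaled CPM in SLC7A1-line library 1 with dox, where SLC7A1 was highest, and at 1.80 in SLC7A2-line library 1 with dox. For SLC7A2_Flag the nearest was SYAP1 (r = 0.95, rho = 0.79, and r = 0.93 without the 2 farthest libraries). SLC7A2_Flag had 0 or 1 count in the SLC7A1 line, so this r also carries the difference between lines. SYAP1 was at 31.1 to 32.5 TMM-scaled CPM there and at 33.5 to 39.8 in the SLC7A2 line. For SLC7A1_endo_Flag it was RAD51D (r = 0.94), a value that rests on the 2 libraries with dox, since the construct was at or near 0 in the other 6.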

How the data were processed

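RNA of 8 U937 SLC19A1-/- libraries (poly(A)-selected, random-primed, DNA nanoball sequencing, paired reads, per the labels' protocols) was analysed from 1 table per library. The authors deposited expected counts, TPM and FPKM per entry with lengths; build hg38 and the tools RSEM 1.3.1, HISAT, DESeq2 1.4.5 and Bowtie2 2.3.4.3 appear, without roles, per the submitters' processing notes. No source used here states whether counting took strand into account. The deposited FPKM values were not used. An entry missing from a library's table was set to 0.

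Expected counts, as deposited by the authors, were rounded to whole numbers for tests and used unrounded for CPM (scaled to 1000000 of the library total). The deposited TPM values by the authors were used for levels between entries. edgeR 4.0.16 (TMM, filterByExpr with minimum count 10 and total 15, quasi-likelihood F test, Benjamini-Hochberg 0.05) was fitted to all 8 libraries and 17503 entries; dox across both lines had line as a covariate. The SE given for an edgeR change is its absolute log2 change divided by the square root of F. Where counts of a group are near the floor, it is not a usable SE. DESeq2 1.42.0, limma 3.58.1 on log2(TPM + 1 or + 0.1), other size factors, no filter, a replicate block and left-out libraries were alternatives. The edgeR, DESeq2 and limma fits were tested on simulated data, without changes that start from almost no counts. Intervals are 95% exact Poisson or binomial ones on rounded counts and, like the floor of 3 counts, cover counting error only. They do not cover the division of reads among entries. Genes were named by list, if they passed the filter, or by highest or lowest correlation of log2 CPM (prior count 2) with SLC7A1 or a construct, among entries with a mean of at least 1. Members and lists were chosen with earlier results of these data known. 1 marker list is not reported here.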

Additional observations from a re-analysis of the deposited data

Results flagged for a closer look

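SLC66A1, the lysosomal exporter of cationic amino acids, moved in opposite directions with dox in the 2 lines without overlap between groups in TMM-scaled CPM, as did 359 of 17503 entries, or 2.05%. In TPM the groups overlapped in both lines. In the SLC7A1 line it was at 27.5 and 23.5 TMM-scaled CPM without dox and 32.2 and 28.0 with dox; in the SLC7A2 line it was at 30.5 and 32.8 without and 29.3 and 28.2 with dox. The difference of the dox effects was -0.38 on the log2 scale (SE 0.23) and did not pass in edgeR (unadjusted p = 0.138, adjusted p = 1).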

How the results depend on the processing

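Where edgeR called 0 entries in each comparison, other settings called the following numbers, given in the order SLC7A1-line dox effect, SLC7A2-line dox effect, their difference, lines without dox and dox across both lines. DESeq2 called 9, 10, 20, 35 and 1, no filter 2, 0, 0, 0 and 2, limma on log2(TPM + 1) 2, 2, 3, 0 and 0, and limma on log2(TPM + 0.1) 3, 3, 3, 0 and 0. All calls without the filter were SLC7A1_endo_Flag and XLOC_024383, whose counts are equal. So were the calls of limma on log2(TPM + 1) for dox in the SLC7A1 line. Without both SLC7A2-line libraries numbered 2 the numbers were 0, 0, 0, 0 and 1, and leaving out 1 library gave 0 to 1 for dox in the SLC7A2 line and for the lines without dox, and 0 in the other 3. The cause of these differences was not tested. With the replicate number as a block within a line, edgeR called 2, 1, 0, 2 and 3. Its calls for dox were SLC7A1_endo_Flag, its equal XLOC_024383 and SLC7A2_Flag only. In that edgeR fit SLC7A1_endo_Flag had an adjusted p of 0.0109 and SLC7A2_Flag of 0.00216, each for dox in its own line. DESeq2 with the block called 45, 26, 21, 733 and 106. Its calls included SLC7A1 in its own line (0.60, adjusted p = 0.00289) and across both lines (0.42, 0.0242). As fitted with the block, the lines without dox were compared at library number 1 only. The 2 and 733 calls there are therefore not comparable with the other settings. For SLC7A1 that DESeq2 value was -0.48 (adjusted p = 0.0492). Same-numbered libraries deviated together at r = 0.20 and 0.31 in the SLC7A1 and SLC7A2 lines over 2 pairs each, which does not establish a pairing. SLC7A1 reversed in the SLC7A2 line without its library 2 with dox (-0.041) and between the lines without SLC7A2-line library 1 without dox (0.014). Leaving out 1 library, its log2 change ran from 0.38 to 0.82 and from -0.041 to 0.48 in the SLC7A1 and SLC7A2 lines, its difference between lines from -0.66 to -0.13, the lines without dox from -0.31 to 0.014 and dox across both lines from 0.30 to 0.56; its TPM difference with dox ran from 3.06 to 6.59, the last, without SLC7A2-line library 1 with dox, at an exact permutation p of 0.0286. The construct over SLC7A1 ratios of the SLC7A1 line were 54.3 and 33.3 with XLOC_024383 added, and 49.8 in library 1 against the median SLC7A1 TPM without dox; the same denominator moved SLC7A2-line library 2 from 201 to 314. Depth limits the entries near 3 counts: endogenous SLC7A2, and SLC7A1_endo_Flag and Flag_Cterm without dox.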
